A study of Mus musculus with 6 samples.

Results

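The lysosomal genes described here are 40 of the 54532 genes in the count table of a mouse infarct macrophage experiment. They were chosen by symbol: cathepsins, other lysosomal hydrolases with their cofactors, lysosomal membrane proteins and the MiT/TFE transcription factors. In order to examine how macrophages of a healing infarct respond to loss of the α5 integrin chain, RNA-seq libraries were made from Ly6G- CD11b+ cells of 3 ITGA5 fl/fl and 3 Myα5KO hearts. The ITGA5 fl/fl mice, called controls here, are littermates without Cre whose Itga5 alleles are flanked by recombination sites. The Myα5KO mice carry the same alleles together with LyzM-Cre, which is expressed from the lysozyme M locus in myeloid cells, neutrophils included. All mice were C57BL/6 animals, operated on at 12 weeks of age, and all hearts were collected 7 days after the left anterior descending artery had been permanently ligated. Macrophages from individual hearts were obtained on magnetic columns, first by removal of Ly6G+ cells and then by retention of CD11b+ cells.

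Lysosomes are acidic organelles in which soluble hydrolases break down proteins, glycans and lipids that reach the cell by phagocytosis, endocytosis or autophagy. Cathepsins are the main lysosomal proteases, and several of them also act on extracellular matrix after secretion. The MiT/TFE factors Tfeb, Tfe3 and Mitf bind a short E-box in the promoters of lysosomal genes and are held in the cytoplasm by phosphorylation at the lysosomal surface. In infarcted hearts, macrophages engulf dead cells and matrix debris, which are then degraded in their lysosomes.

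All 40 genes were expressed in every library, and 39 of them did not differ between Myα5KO and ITGA5 fl/fl macrophages beyond the threshold of the test. The exception was Tfeb, a master transcriptional regulator of lysosomal biogenesis, which was 1.25-fold higher in the Myα5KO libraries. This call was close to the threshold (edgeR adjusted p 0.0371) and was lost in 8 of 18 alternatives. It held in 2 of 6 fits with a library left out. No member was lower at an adjusted p of 0.05 or less by edgeR, DESeq2, limma-voom or limma on FPKM. At an unadjusted p under 0.05, edgeR gave 3 genes with higher values (Ctsk, Acp2 and Tfeb) and 2 with lower values (Gla and Tfe3). Over all 14522 genes tested, 8.75% were called changed, 3.56% higher and 5.19% lower in Myα5KO. The 1 call among 40 members lies below this background.

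The libraries held between 15424451 and 18419287 counts. Itga5, the targeted gene, fell from 607 ± 43.2 CPM in ITGA5 fl/fl to 48.7 ± 1.48 CPM in Myα5KO cells (SD, n = 3 each). Lyz2, the lysozyme M gene into which Cre is inserted, fell from 7315 ± 286 to 3874 ± 254 CPM. Because the controls carry no Cre, effects of Itga5 loss, of Cre and of the lower Lyz2 cannot be told apart here. CPM are counts relative to library size, scaled with TMM factors. Among 14522 genes tested, 517 were higher and 754 lower, and scaling by library totals alone gave 1212 and 518. The macrophage markers Adgre1, Csf1r, Mertk, C1qa, C1qb and C1qc were abundant in both groups and were not called. Of the 11 macrophage markers, Fcgr1 and Cx3cr1 were higher and Cd14 was lower. The sum of all 11 ranged from 17576 to 17716 CPM in control and from 15700 to 16579 CPM in Myα5KO libraries. Its mean fell from 17639 to 16148 CPM, and that of Cd14 alone from 4755 ± 160 to 3489 ± 239 CPM, so most of the difference lay in Cd14. In Myα5KO libraries, however, 6 of 8 tested neutrophil markers, 4 of 5 monocyte markers and 2 of 5 B cell markers were higher. The 6 neutrophil markers were S100a8, S100a9, Camp, Ngp, Ltf and Mpo. Csf3r and Retnlg were not called, and Retnlg had a negative log2 fold change (-0.65). The summed level of the 10 neutrophil markers ranged from 184 to 226 CPM in control and from 249 to 375 CPM in Myα5KO, while Ly6g had between 0 and 2 counts per library. Csf3r alone gave 155 ± 16.6 CPM of this sum in control and 169 ± 12.3 CPM in Myα5KO. The 5 monocyte markers summed to between 267 and 320 CPM in control and between 419 and 440 CPM in Myα5KO. The 5 B cell markers summed to between 68.0 and 107 CPM in control and between 107 and 172 CPM in Myα5KO, and the groups overlapped. Conversely, 1 of 8 fibroblast markers was lower, and their sum ranged from 1620 to 1899 CPM in control and from 1211 to 1579 CPM in Myα5KO. Of the other lists, 1 of 7 dendritic and 1 of 5 endothelial markers were higher and 3 of 7 cardiomyocyte markers were lower. The T and NK cell list had 3 genes past the count filter, of which 0 were called by edgeR and 2 had an unadjusted p under 0.05. The part of these cells in the values given here was not tested. In such bulk libraries, fewer cells of a type and less RNA per cell cannot be told apart.

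In order to show where the E-box of the MiT/TFE factors lies in these genes, the sequence around it was read from the RefSeq start-site windows of build GRCm38.p6, which run from 250 bases before to 50 bases after each start. The letters searched were CACGTG, which reads the same on both strands, and GTCACGTG with its reverse complement, which contains it. A window was at hand for 35 of the 40 genes. CACGTG occurred in 11 of these 35 (31.4%) and in 8.09% of 27025 genes with a window, and the longer GTCACGTG occurred in 8 (22.9%) and in 2.55%. For the separate E-box CATGTG, searched on both strands, the shares were 22.9% and 15.9%. The 27025 genes were not matched to the members for expression or base composition, so the shares are a description only. The 8 genes with the longer form follow, each on the strand of the gene, with CACGTG in capitals. Sites that fall in an exon are shown as 30 bases.
Lgmn (chr12:102439116-102439161, minus strand, intron of Lgmn): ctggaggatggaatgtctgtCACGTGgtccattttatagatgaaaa
Ctsd (chr7:142387908-142387937, minus strand, exon of Ctsd): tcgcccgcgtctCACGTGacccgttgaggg
Ctsa (chr2:164833766-164833795, plus strand, exon of Ctsa): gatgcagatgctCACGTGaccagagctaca
Glb1 (chr9:114401010-114401055, plus strand, between genes): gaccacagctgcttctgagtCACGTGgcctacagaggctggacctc
Naglu (chr11:101070009-101070038, plus strand, exon of Naglu): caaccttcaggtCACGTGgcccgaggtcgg
Gla (chrX:134601182-134601211, minus strand, exon of Hnrnph2): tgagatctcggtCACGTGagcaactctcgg
Lamp1 (chr8:13159080-13159160, plus strand, between genes): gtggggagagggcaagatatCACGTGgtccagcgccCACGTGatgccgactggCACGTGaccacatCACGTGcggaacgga
Mcoln1 (chr8:3500462-3500491, plus strand, exon of Mcoln1): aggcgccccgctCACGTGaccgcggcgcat

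The Lamp1 stretch holds 4 copies of CACGTG, the first 61 and the last 15 bases before the RefSeq start. The windows of Ctsd, Ctsa, Gla and Mcoln1 hold 2 copies each, of which 1 is shown. In Glb1 the copy shown begins 48 bases before the start, in Lgmn 49, in Naglu 73 and in Ctsd 98 bases before it. Lgmn and Ctsa each have 2 RefSeq starts, and the stretch shown belongs to 1 of them. Such a match is a description of letters and says nothing of binding.

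The genes with CACGTG did not stand apart from the others in the comparison of the groups. Their log2 fold changes, Myα5KO over ITGA5 fl/fl, ranged from -0.15 (Gla) to 0.11 (Ctsf), with a median of -0.03 over 11 genes, and 0 of the 11 were called by edgeR. The 24 genes with a window and without these letters had a median log2 fold change of -0.02, and 1 was called. That gene was Tfeb itself, whose 3 start-site windows held neither E-box.

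Levels of the lysosomal genes were compared with each other on the FPKM scale of the authors, which accounts for gene length. The mean over all 6 libraries ranged from 3.57 FPKM for Ctse to 3770 FPKM for Psap, a 1056-fold span. Of the 40 genes, 21 exceeded 100 FPKM, 5 exceeded 1000 FPKM and 5 lay under 10 FPKM. The 5 most abundant were Psap, which encodes the precursor of the saposins, the cathepsins Ctss, Ctsb and Ctsd, and Lgmn, the asparaginyl endopeptidase. By mean FPKM, 11 members ranked among the 100 most abundant genes of these cells, with Psap at rank 5, Ctss at rank 9, Ctsb at rank 17 and Ctsd at rank 18. Exons of Ctsb, Hexa, Acp2, Ctsa and Lamp1 share between 9.31% and 12.8% of their bases with a gene on the other strand, which leaves that part of their counts uncertain. Ctsa also shares 6.87% with another gene on the other strand, Neurl2. The MiT/TFE factors lay at the other end, with mean levels of 13.6 FPKM for Tfe3, 11.6 FPKM for Mitf and 6.72 FPKM for Tfeb.

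**Figure D1:**
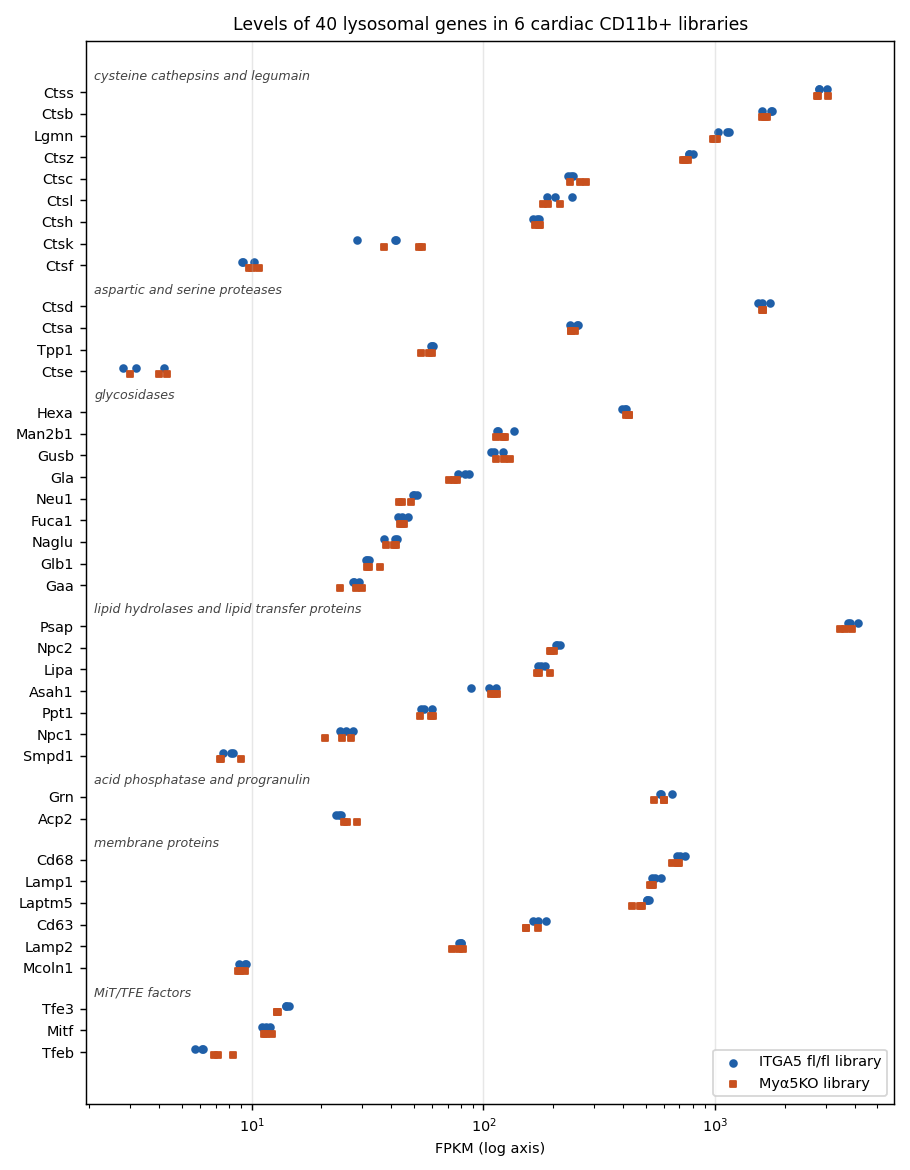
FPKM of the 40 lysosomal genes in each of the 6 libraries, on a log axis, grouped by role and ordered by mean level (blue circles, ITGA5 fl/fl; orange squares, Myα5KO). Levels span 3.57 to 3770 FPKM between genes, whereas the libraries of both groups lie close together within nearly every gene.

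The combined level of these genes overlapped between the groups. Together the 40 genes took 5.01 ± 0.157% of all counts in control and 5.13 ± 0.102% in Myα5KO libraries (SD, n = 3 each). On the TMM scale their sum ranged from 49593 to 53329 CPM in control and from 49367 to 50765 CPM in Myα5KO, so that the direction of this small difference depended on the scaling and the groups overlapped on both scales. Psap, Ctsb, Ctss and Ctsd supplied between 54.7% and 56.2% of the summed CPM in every library.

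Differences between the groups were small next to the spread over all genes tested. The log2 fold changes of the members ranged from -0.15 for Gla to 0.38 for Ctsk, with a median of -0.02, and the median over all genes tested was 0.01. In absolute size the median was 0.07 for the members and 0.15 for all genes tested. This comparison was not matched for level, and 21 of the 40 members exceeded 100 FPKM, so it does not show that they were unusually stable. The 95% interval of the fold change lay within 1.3-fold in either direction for 37 of 40 genes and within 1.5-fold for 39, but within 1.1-fold for none. The genes whose intervals passed 1.3-fold were Ctsk, Ctse and Tfeb. All Myα5KO libraries lay beyond all controls, in either direction, for 8 of the 40 genes (6 lower, 2 higher), a pattern found in 28.6% of all genes tested. Spread between libraries of a group was low, with a median coefficient of variation of 4.50% in control and 4.54% in Myα5KO.

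**Figure D2:**
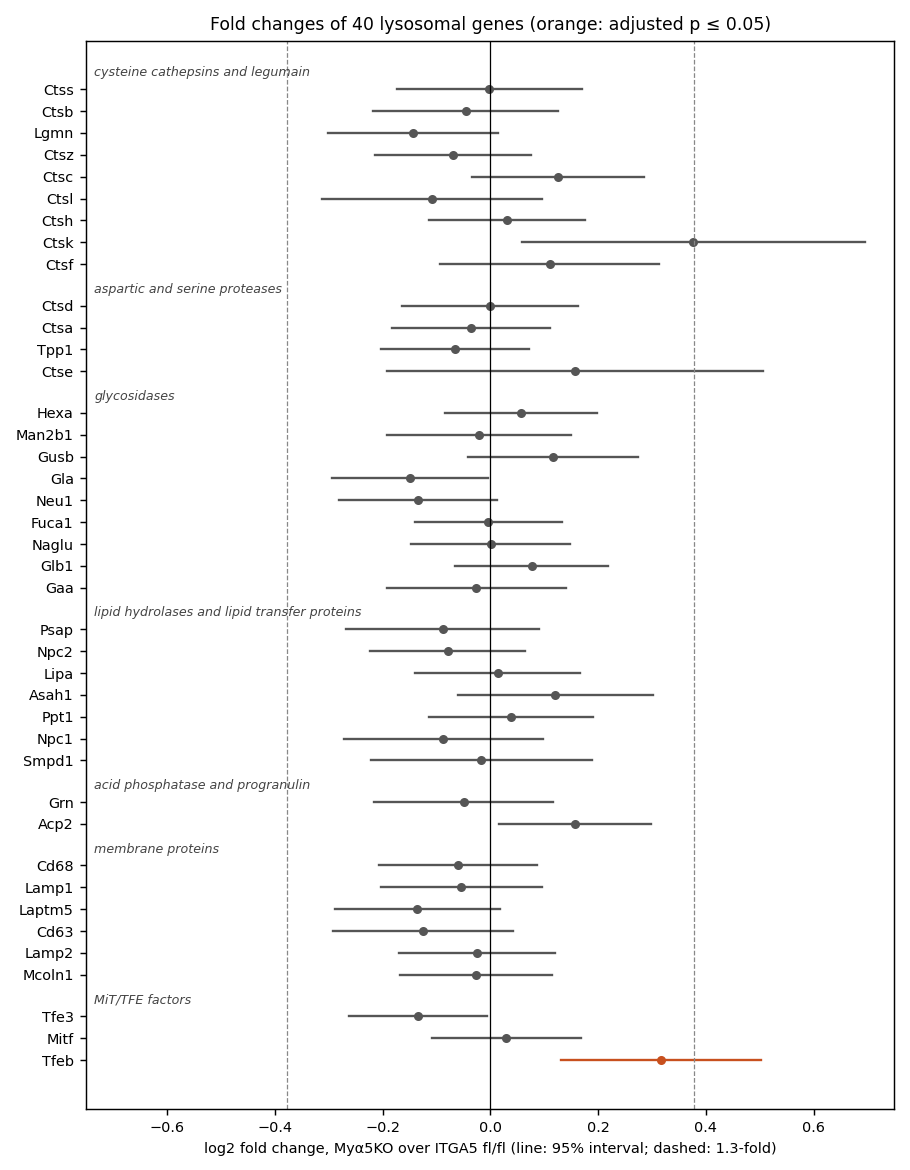
Log2 fold change, Myα5KO over ITGA5 fl/fl, of each lysosomal gene with its 95% interval from edgeR, grouped by role. Dashed lines mark 1.3-fold, and Tfeb, at 0.32 with an interval from 0.13 to 0.50, is the 1 gene called.

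**Figure D3:**
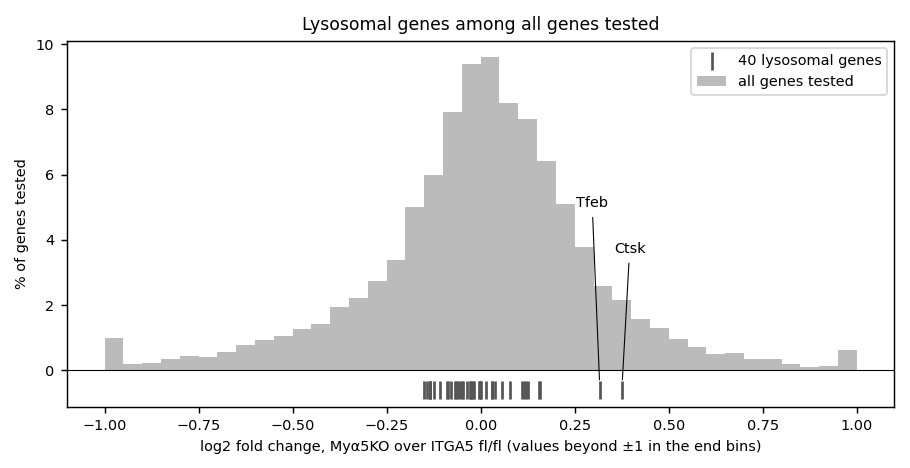
Log2 fold changes of all 14522 genes tested (grey bars, as a percent of genes in each bin) with those of the 40 lysosomal genes marked below. The members, except Ctsk at 0.38 and Tfeb at 0.32, lie between -0.15 and 0.16, near the centre of the distribution.

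Cysteine cathepsins and legumain formed the most abundant protease group, and none of the 9 genes was called. Their median log2 fold change was -0.00, and their summed level was 21501 ± 849 CPM in control and 20937 ± 101 CPM in Myα5KO cells. Ctss (chr3:95526786-95556403, plus strand) encodes cathepsin S, which processes the invariant chain for antigen presentation. Its level was 4117, 3817 and 3806 CPM in the control libraries and 3748, 3760 and 4215 CPM in the Myα5KO libraries. The highest value was in Myα5KO replicate 3 and the lowest in Myα5KO replicate 1, so that the control values lay between them, and the log2 fold change of Ctss was -0.00 (95% interval -0.17 to 0.17). Ctsb (chr14:63122462-63145923, plus strand), a lysosomal protease with both endopeptidase and exopeptidase activity, measured 10487, 9696 and 10689 CPM in ITGA5 fl/fl. In Myα5KO libraries Ctsb measured 10151, 9963 and 9789 CPM, all within the range of the controls.

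Cathepsin L, encoded by Ctsl (chr13:64359337-64370890, minus strand), is an endopeptidase of broad specificity. Ctsl reached 1321, 1230 and 1567 CPM in control and 1390, 1178 and 1251 CPM in Myα5KO libraries, with the highest value in ITGA5 fl/fl replicate 3 and overlap between the groups. Of its annotated exon bases, 26.8% are shared with an antisense transcript, and how strand was handled in counting is not given in the sources used here. Ctsl also shares 6.09% of these bases with the processed pseudogene Gm49230 on the same strand. Ctsz (chr2:174427493-174439039, minus strand), a carboxypeptidase, measured 1117, 1123 and 1154 CPM in control and 1053, 1065 and 1118 CPM in Myα5KO libraries. The Ctsz values of the groups overlapped through Myα5KO replicate 3. For Ctsc (chr7:88278085-88310888, plus strand), the dipeptidyl peptidase that activates granule serine proteases, the ITGA5 fl/fl libraries had 1346, 1419 and 1386 CPM. Myα5KO libraries had 1522, 1608 and 1399 CPM of Ctsc, or 0.13 as log2 fold change (SE 0.07, edgeR adjusted p 0.342). Although 2 Myα5KO libraries lay above all controls for Ctsc, the third lay among them.

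Ctsh (chr9:90054152-90076089, plus strand), an aminopeptidase, had 783, 769 and 737 CPM in control and 752, 780 and 806 CPM in Myα5KO libraries. Ctsf (chr19:4855129-4860912, plus strand), a cathepsin of low abundance in these cells, had 18.10, 20.38 and 17.98 CPM in control and 19.96, 19.32 and 21.66 CPM in Myα5KO libraries. Both genes overlapped between the groups, with log2 fold changes of 0.03 for Ctsh and 0.11 for Ctsf. Lgmn, which converts several cathepsins to their mature chains, lay lower in all 3 Myα5KO libraries (2570 ± 140 against 2327 ± 35.3 CPM), but its log2 fold change of -0.14 did not pass the test (SE 0.07, edgeR adjusted p 0.265).

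The largest fold change among the lysosomal genes was that of Ctsk, and it was also among the least precise. Ctsk (ENSMUSG00000028111, chr3:95499256-95509362, plus strand) encodes cathepsin K, a strong collagenase known from osteoclasts. Its values were 63.6, 43.3 and 62.8 CPM in control and 56.6, 80.0 and 83.5 CPM in Myα5KO libraries. Myα5KO replicates 2 and 3 were above all controls, but Myα5KO replicate 1 lay between them and ITGA5 fl/fl replicate 2 was far below the others. The log2 fold change of 0.38 (95% interval 0.06 to 0.69) did not pass the test over all genes (edgeR adjusted p 0.142, from 0.0188 to 1 over the alternatives with a count filter). Without Myα5KO replicate 1 it was 0.53 and was called (adjusted p 0.0188), and without ITGA5 fl/fl replicate 2 it was 0.22 (adjusted p 0.423). Without the count filter Ctsk was also called (adjusted p 7.23e-05). Ctss, the neighbour of Ctsk at a distance of 17423 bases, showed a log2 fold change of -0.00. Relative to Ctss, the FPKM of Ctsk was 0.0130 ± 0.00245 in control and 0.0168 ± 0.0029 in Myα5KO cells (SD, 3 libraries each). This was 1 of 4 FPKM ratios examined, all chosen with the values known, and its exact two-sided permutation p was 0.3 (0.3 after Benjamini-Hochberg adjustment over the 4).

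Aspartic and serine proteases, of which none of 4 was called, showed still less movement, with a summed level of 5301 ± 256 CPM in control and 5257 ± 16.5 CPM in Myα5KO cells. Ctsd (chr7:142375911-142388038, minus strand) encodes cathepsin D, the main lysosomal aspartic protease. The ITGA5 fl/fl libraries had 3751, 3605 and 4045 CPM of Ctsd, and the Myα5KO libraries had 3794, 3792 and 3809 CPM. The Myα5KO values were nearly identical to each other and lay inside the range of the controls, for a log2 fold change of -0.00 (95% interval -0.16 to 0.16). Ctsd shares 34.4% of its annotated exon bases with the predicted gene Gm49369 on the same strand, so its absolute level is uncertain to that extent. Ctsa (chr2:164832873-164841032, plus strand), the carboxypeptidase that protects β-galactosidase and neuraminidase, had 1212, 1126 and 1197 CPM in control and 1132, 1170 and 1145 CPM in Myα5KO libraries. Ctse (chr1:131638306-131675505, plus strand), an aspartic protease of endosomes, was the least abundant member, with 13.3, 10.2 and 8.88 CPM in control and 12.6, 13.7 and 9.62 CPM in Myα5KO libraries. Both genes overlapped between the groups. Ctse, with 156 to 256 counts per library, had a wide interval for its log2 fold change of 0.16 (95% interval -0.19 to 0.51). Tpp1, a tripeptidyl peptidase, had a log2 fold change of -0.07 and values that did not overlap between the groups (312 ± 2.19 against 298 ± 13.2 CPM), but it was not called (edgeR adjusted p 0.590).

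Glycosidases cleave sugars from glycoproteins and glycolipids, and none of the 9 genes in this group was called. Hexa (chr9:59539540-59565109, plus strand), the α subunit of β-hexosaminidase, was the most abundant. Its level was 814, 797 and 827 CPM in control and 822, 851 and 863 CPM in Myα5KO libraries, and the groups overlapped. Hexa had a log2 fold change of 0.06 (95% interval -0.08 to 0.20). Positive values were also found for Gusb (β-glucuronidase, 0.12), Glb1 (β-galactosidase, 0.08) and Naglu (α-N-acetylglucosaminidase, 0.00). Negative values were found for Gaa (acid α-glucosidase, -0.03), Man2b1 (α-mannosidase, -0.02), Fuca1 (α-fucosidase, -0.00), Neu1 (neuraminidase, -0.13) and Gla (α-galactosidase A, -0.15), of which those of Gaa, Man2b1 and Fuca1, like that of Naglu, changed sign between alternatives. Gla had the lowest log2 fold change of all members. All 3 Myα5KO libraries (244 ± 10.9 CPM) lay below all ITGA5 fl/fl libraries (271 ± 13.7 CPM) for Gla, but the difference did not pass the test (edgeR adjusted p 0.203).

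Lipid hydrolases and lipid transfer proteins included the most abundant transcript of the whole set, and none of the 7 genes was called. Psap (chr10:60277627-60302597, plus strand) measured 10512, 10366 and 11303 CPM in ITGA5 fl/fl libraries. In the Myα5KO libraries it measured 10670, 9513 and 10082 CPM. The lowest value was in Myα5KO replicate 2 and the highest in ITGA5 fl/fl replicate 3, the groups overlapped, and the log2 fold change was -0.09 (95% interval -0.27 to 0.09). Npc1 and Npc2, which pass cholesterol out of the lysosome, had log2 fold changes of -0.09 and -0.08. Lipa, the acid lipase of cholesteryl esters and triglycerides, was at 0.01, and Asah1, acid ceramidase, was at 0.12. Ppt1, palmitoyl-protein thioesterase, was at 0.04, and Smpd1, acid sphingomyelinase, was at -0.02. The edgeR adjusted p in this group was 0.423 or more.

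Acp2 and Grn stand outside these enzyme classes. Grn (chr11:102430315-102437048, plus strand) encodes progranulin, a precursor of lysosomal granulins. Its level was 2031, 2018 and 2275 CPM in control and 2087, 2094 and 1928 CPM in Myα5KO libraries, with overlap and a log2 fold change of -0.05. Acp2, lysosomal acid phosphatase, lay higher in all 3 Myα5KO libraries (124 ± 3.03 against 138 ± 8.25 CPM), with a log2 fold change of 0.16 that did not pass the test (SE 0.07, edgeR adjusted p 0.166) except with library totals alone as scaling (adjusted p 0.0310).

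None of the 6 lysosomal membrane proteins was called, and all had negative log2 fold changes, between -0.14 and -0.03, although those of Cd68, Lamp1, Lamp2 and Mcoln1 turned positive with library totals alone as scaling. Their summed level was 5750, 5697 and 5956 CPM in control and 5521, 5520 and 5363 CPM in Myα5KO libraries, without overlap. As a share of all counts, the same 6 genes took 0.563 ± 0.0116% in control and 0.562 ± 0.0076% in Myα5KO libraries (SD, n = 3 each), so the lower sum appeared on the TMM scale and not in the share. Cd68 (chr11:69664213-69666153, minus strand), a heavily glycosylated protein of macrophage late endosomes, was the most abundant. It had 889, 866 and 935 CPM in control and 882, 867 and 831 CPM in Myα5KO libraries. The ITGA5 fl/fl values included the highest and the Myα5KO values the lowest, with overlap, at a log2 fold change of -0.06 (95% interval -0.21 to 0.09). Lamp1 and Lamp2, which line the lysosomal membrane, were at -0.05 and -0.03, and Mcoln1, a calcium channel of that membrane, was at -0.03. Cd63, a tetraspanin of late endosomes, was at -0.12, and Laptm5, a transmembrane protein of hematopoietic cells, was at -0.14. For Laptm5 the groups did not overlap (1942 ± 25.2 against 1768 ± 80.2 CPM), but the edgeR adjusted p was 0.276.

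**Figure D4:**
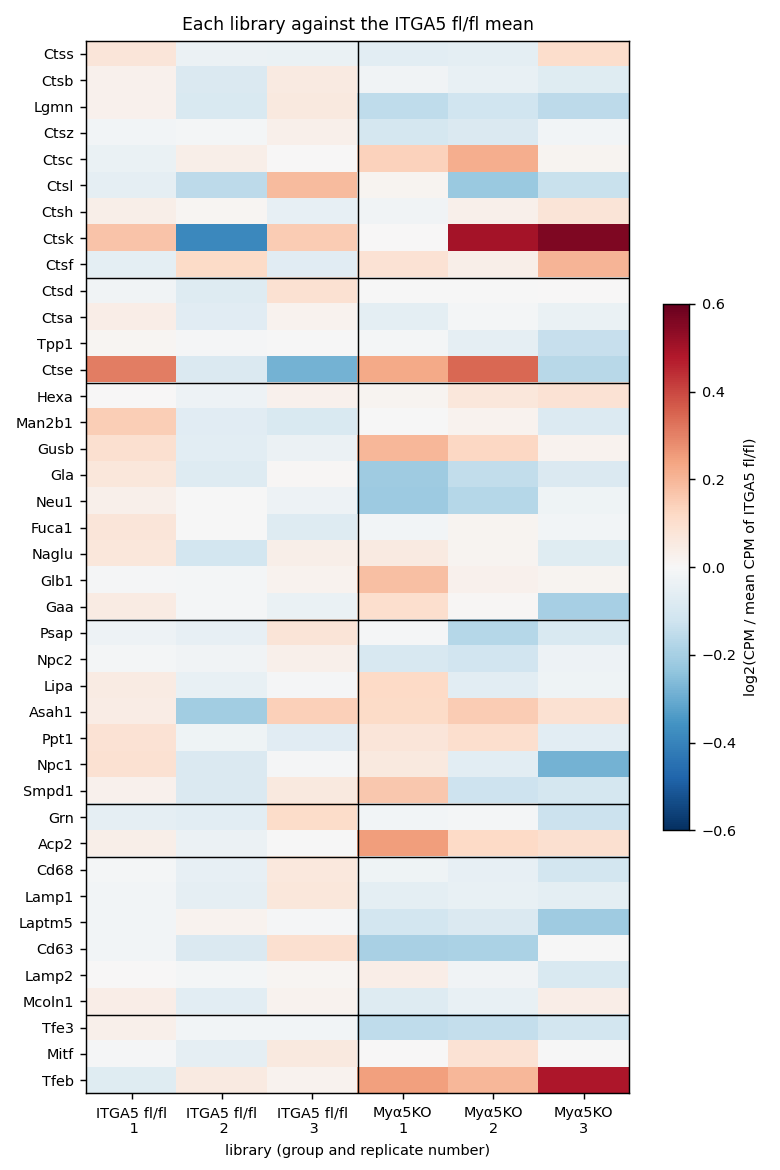
Log2 ratio of the CPM of each library to the mean CPM of the 3 ITGA5 fl/fl libraries, for the 40 lysosomal genes (rows, grouped by role in the same order as in the plot of levels). The strongest colours are those of Ctsk, Ctse and Tfeb, and the rows of Lgmn, Laptm5, Gla and Tfe3 are pale blue in all 3 Myα5KO libraries.

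No single library had the highest or the lowest value for most of the lysosomal genes, although the counts were uneven. ITGA5 fl/fl replicate 3 had the highest value for 11 genes and the lowest for 6. ITGA5 fl/fl replicate 2 had the highest value for 1 gene and the lowest for 11. In the other 4 libraries the count of highest values ranged from 5 to 9 and that of lowest values from 2 to 9.

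Of the MiT/TFE factors, Tfeb was higher in the Myα5KO libraries, whereas Tfe3 and Mitf were not called. Tfeb (ENSMUSG00000023990, chr17:47737030-47792419, plus strand) had 32.4, 35.4 and 34.6 CPM in control and 40.6, 39.3 and 47.8 CPM in Myα5KO libraries. Every Myα5KO value exceeded every control value, and Myα5KO replicate 3 stood highest. Tfeb had a log2 fold change of 0.32 (95% interval 0.13 to 0.50, edgeR adjusted p 0.0371, from 0.0128 to 1 over the alternatives with a count filter and 0.00712 without one), and DESeq2 and limma-voom also called it (adjusted p 0.0338 and 0.0448). This call was close to the threshold. It was lost without ITGA5 fl/fl replicate 1, 2 or 3 (log2 fold change 0.28, 0.34 and 0.33, adjusted p 0.105, 0.0796 and 0.0978), without Myα5KO replicate 3 (0.22, adjusted p 0.107) and with limma on FPKM (adjusted p 0.0947). Myα5KO replicate 3 also had the highest summed level of neutrophil (375 CPM, of which Csf3r gave 179 CPM) and monocyte markers (440 CPM). The part of those cells in the Tfeb value was not tested.

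Tfe3 (chrX:7762560-7775202, plus strand), a close relative with the same DNA preference, had 135, 131 and 131 CPM in control and 119, 120 and 123 CPM in Myα5KO libraries. The groups did not overlap, yet the log2 fold change of -0.13 did not pass the test (SE 0.06, edgeR adjusted p 0.193). Mitf (chr6:97807052-98021349, plus strand), known from melanocytes and osteoclasts, had 71.5, 69.2 and 74.8 CPM in control and 72.0, 76.2 and 71.7 CPM in Myα5KO libraries, with a log2 fold change of 0.03 (95% interval -0.11 to 0.17). The summed level of the 3 factors was 238 ± 2.49 CPM in control and 236 ± 5.28 CPM in Myα5KO macrophages. In proportion, the FPKM of Tfeb was 0.392, 0.442 and 0.431 of that of Tfe3 in control and 0.556, 0.536 and 0.637 in Myα5KO libraries. The ratios did not overlap (exact two-sided permutation p 0.1, the smallest that 3 against 3 libraries allow, and 0.133 after adjustment over the 4 ratios). This outcome was fixed in advance, because every Myα5KO library lay above all controls for Tfeb and below them for Tfe3. The ratio therefore adds no evidence to that of the single genes. Tfec, the remaining MiT factor and no member of the set, had a log2 fold change of -0.30 that was not called (adjusted p by edgeR 0.0752). The FPKM ratio of Tfeb to Tfec was 1.27 ± 0.0872 in control and 1.94 ± 0.233 in Myα5KO libraries. Its exact two-sided permutation p was 0.1 (0.133 after adjustment over the 4 ratios). That outcome too was fixed in advance, as every Myα5KO library lay below all controls for Tfec.

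**Figure D5:**
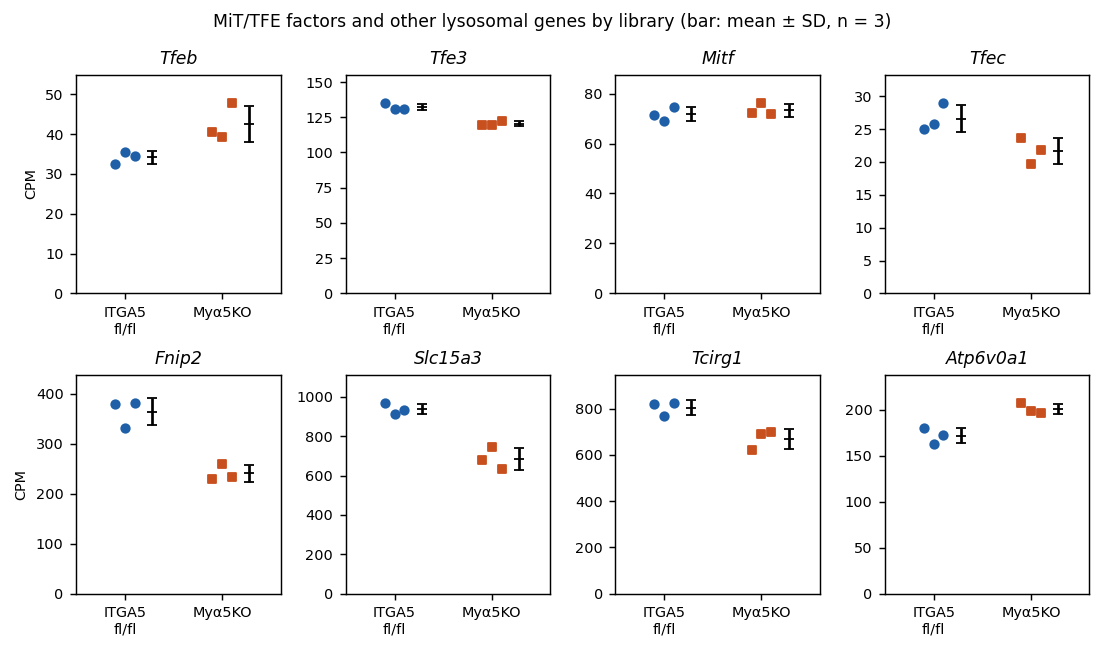
CPM by library of the MiT/TFE factors and of 4 further lysosomal genes that were called (blue circles, ITGA5 fl/fl; orange squares, Myα5KO; bars, mean ± SD, n = 3). Myα5KO values are all above the controls for Tfeb and Atp6v0a1, and all below them for Tfe3, Tfec, Fnip2, Slc15a3 and Tcirg1.

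To place these genes within the lysosomal system, 115 further genes were examined in 5 lists, of which 107 passed the count filter. Of these 107, 1 was higher and 5 were lower in Myα5KO cells, with a median log2 fold change of 0.01. Over all 14522 genes tested, 3.56% were higher and 5.19% lower, and both counts among the 107 lie below these shares. Among 18 subunits of the V-ATPase, the proton pump that acidifies lysosomes, 1 was higher and 1 lower, and both encode forms of the membrane subunit a. Atp6v1e1, a subunit of the peripheral V1 part, lay just beyond the threshold (log2 fold change -0.23, edgeR adjusted p 0.05001) and was called lower in 5 of the 18 alternatives. Atp6v0a1 had 180, 163 and 172 CPM in control and 207, 198 and 197 CPM in Myα5KO libraries (log2 fold change 0.22, SE 0.06, edgeR adjusted p 0.0482). Tcirg1, the a3 isoform known from osteoclasts, had 822, 768 and 823 CPM in control and 620, 688 and 697 CPM in Myα5KO libraries (log2 fold change -0.27, SE 0.07, edgeR adjusted p 0.0359). Both genes separated the groups, in opposite directions. The FPKM ratio of Atp6v0a1 to Tcirg1 was 0.146 ± 0.00346 in control and 0.206 ± 0.0193 in Myα5KO cells (SD, 3 libraries each), with an exact two-sided permutation p of 0.1 (0.133 after adjustment). Given the opposite separation of Atp6v0a1 and Tcirg1, this outcome was also fixed in advance. When single libraries were left out, each of these calls held in 1 of 6 fits, the one without Myα5KO replicate 3, and both were lost with limma on FPKM. The call of Atp6v0a1 was also lost with median-ratio or upper quartile scaling, and that of Tcirg1 with library totals alone.

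The cystatins, which inhibit cathepsins, passed the filter in 3 of 10 cases, and edgeR called none of the 3, none of which had an unadjusted p under 0.05. Cst3, which encodes cystatin C, had 1195 ± 79.6 CPM in control and 1252 ± 97.0 CPM in Myα5KO cells. Cstb had 199 ± 12.1 and 197 ± 17.0 CPM. Of 26 sorting receptors and other membrane proteins tested, 2 were lower. Slc15a3, a transporter of histidine and peptides in the lysosomal membrane, had 967, 915 and 933 CPM in control and 679, 744 and 634 CPM in Myα5KO libraries (log2 fold change -0.45, edgeR adjusted p 0.00283). Tpcn2, an endolysosomal ion channel, had a log2 fold change that stood at -0.25 (edgeR adjusted p 0.0340), a call that held in 1 of 6 fits, that without ITGA5 fl/fl replicate 1, and was lost with library totals alone and with limma on FPKM.

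The last list, of 30 genes, covered the Rag, Ragulator and folliculin machinery, which controls the phosphorylation and localization of the MiT/TFE factors at the lysosome. It also held other regulators, among them Mtor, Rptor, Mlst8, Rheb, Ppp3ca, Ppp3cb and Ppp3r1, and the factor Tfec itself. The list included 1 called gene. Fnip2 (chr3:79455974-79567796, minus strand) encodes a partner of folliculin. It had 380, 332 and 381 CPM in control and 229, 260 and 233 CPM in Myα5KO libraries. All Myα5KO values lay well below all controls, with a log2 fold change at -0.60 (SE 0.08, edgeR adjusted p 0.000537). Fnip2 and Slc15a3 were called in every fit with a library left out.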

How the data were processed

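Polyadenylated RNA of Ly6G- CD11b+ cells from 6 mouse hearts was sequenced as paired-end reads of 150 bases. The library kit, as named, does not mark strand. According to the submitters' processing notes and the methods of the study, reads were aligned with TopHat2 2.0.9 to mm10 (GRCm38.p6) and assigned to genes with HTSeq 0.6.1, and Cufflinks 2.1.1 is also named. The count table deposited by the authors holds whole reads per gene and library, without normalization. The FPKM table deposited by the authors holds values scaled for gene length and library size. Handling of strand and of reads with several matches is not given in the sources used here, so counts of overlapping genes are uncertain. Groups and replicate numbers came from the titles of the samples.

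edgeR 4.0.16 (R 4.3.3) was fitted to all 6 libraries by quasi-likelihood, with TMM factors and its expression filter (minimum count 10, minimum total 15), without covariates. Two-sided p-values of all 14522 genes tested received the Benjamini-Hochberg adjustment, and an adjusted p of 0.05 or less is a call. Intervals are 95% intervals of the fitted log2 fold change. The members and gene lists were chosen with earlier results of these data known. All members are given by role. Values of every library are given for called members, all cathepsins, the MiT/TFE factors and the member of each role with the highest FPKM. Of each further list, up to 4 called genes are named, except 1 gene that is not reported here. Lgmn, Gla, Acp2, Tpp1, Laptm5, Cst3, Cstb, Tfec, Atp6v0a2 and Atp6v1e1 are given with more detail than this rule asks, because of their values. Alternatives tried were DESeq2 1.42.0, limma-voom (limma 3.58.1), limma on log2(FPKM + 1) and log2(FPKM + 0.1) (FPKM of 1 or more in 3 or more libraries), 3 other scalings, 2 other count filters, a block for the replicate number, omission of each library, an adjusted p of 0.01 and a minimum of 1.5-fold. Between replicates of a group, chi-square per degree of freedom was at least 5.59, so no library was a repeat of another. High counts reduce counting error only, whereas the intervals also include the spread between libraries, estimated from 3 per group. Promoter windows came from RefSeq, and annotation from GENCODE M21. The extract protocol speaks of further libraries, which were not analysed here.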

Additional observations from a re-analysis of the deposited data

How the results depend on the processing

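Of 720 fold changes of the 40 lysosomal genes recomputed under 18 alternatives, 660 kept their direction and side of the threshold, 8 lost the call (all Tfeb), 3 gained one (Ctsk in 2, Acp2 in 1) and 49 changed sign. The sign changes concerned 20 genes that were not called and had log2 fold changes near 0. With library totals as the only scaling, which moves the median of all genes from 0.01 to 0.10 and that of the members to 0.06, the log2 fold changes became 0.035 for Ctsb, 0.079 for Ctss, 0.012 for Ctsz, 0.080 for Ctsd, 0.045 for Ctsa, 0.015 for Tpp1, 0.055 for Gaa, 0.060 for Man2b1, 0.077 for Fuca1, 0.065 for Smpd1, 0.0014 for Npc2, 0.031 for Grn, 0.027 for Lamp1, 0.056 for Lamp2, 0.021 for Cd68 and 0.054 for Mcoln1. Without a count filter Ctss was at 0.0052, Ctsd at 0.0061 and Fuca1 at 0.0035, and limma-voom gave 0.00098 for Ctsd. Naglu was at -0.0092 with DESeq2, -0.0092 with median-ratio and -0.0073 with upper quartile scaling, -0.0032 with limma on FPKM at both pseudocounts and -0.015 with at least 10 counts in every library, where Lipa was at -0.0024. With single libraries left out, log2 fold changes ranged from -0.060 to 0.036 for Ctss, -0.037 to 0.047 for Ctsd, -0.097 to 0.054 for Gaa, -0.065 to 0.060 for Man2b1, -0.040 to 0.034 for Fuca1, -0.052 to 0.037 for Naglu, -0.12 to 0.031 for Smpd1, -0.047 to 0.047 for Lipa, -0.17 to 0.00088 for Npc1, -0.080 to 0.0085 for Grn, -0.062 to 0.0080 for Lamp2 and -0.0029 to 0.060 for Mitf. The number of lysosomal genes called higher was 0 with limma on FPKM (both pseudocounts), at an adjusted p of 0.01 and at a minimum of 1.5-fold, 2 with library totals and without a count filter, and 0 to 2 with a library left out. No fit called a member lower. Of the further lysosomal genes, the number called higher was 0 with limma on FPKM, median-ratio scaling, upper quartile scaling, at least 10 counts in every library, an adjusted p of 0.01 or a minimum of 1.5-fold, 9 with library totals, 2 without a count filter and 0 to 4 with a library left out. The number called lower was 2 with limma on FPKM, library totals or an adjusted p of 0.01, 0 at a minimum of 1.5-fold and 2 to 3 with a library left out. Apart from the stricter thresholds and fewer libraries, the cause of these changes was not tested. Over all genes, the counts called higher and lower were 517 and 754 with edgeR, 150 and 322 with limma on log2(FPKM + 1), 142 and 306 on log2(FPKM + 0.1), 128 and 342 at an adjusted p of 0.01, and 1 and 14 at a minimum of 1.5-fold.

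Samples with the same replicate number did not deviate together from their group means (correlation across genes 0.053, -0.087 and 0.039), so the numbers were not taken as pairs. With the replicate block in the fit, 1 lysosomal gene was called higher and 0 lower, Tfeb kept its call (adjusted p 0.0417), Atp6v0a1 and Tcirg1 lost theirs, and Ctsd was at 0.00092.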
